A study of Homo sapiens with 16 samples.

Results

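Binding of the transcription factor MAFG across the genome was compared between 2 lines of WM164, a human melanoma cell line, by CUT&RUN, in which an antibody guides a nuclease to its target in nuclei so that DNA around the bound sites is cut out and sequenced. The comparison rests on the 6 libraries made with anti-MAFG, of 16 samples in the series: 3 from WM164 cells that overexpress GFP (GFP cells) and 3 from WM164 cells that overexpress MAFG (MAFG cells). About 250000 cells went into each sample, and both lines were grown in the same medium. The vector and promoter that drive GFP or MAFG, and whether a line is 1 clone, are not given in the sources used here. The same lines were also profiled with anti-MITF (3 libraries each) and with anti-H3K4me3, a histone mark of active promoters (1 library each), and those lists serve below as annotation. Nothing in the labels says that the replicates came from separate cultures, so p-values measure only the spread between these libraries, which may be technical. Peaks of the 6 anti-MAFG lists that overlapped by at least 1 bp were merged, which gave 34223 regions, and each region was described by the number of libraries of each line that called it. As a check of the labelled cell type, H3K4me3 peaks within 5000 bp of a gene end were looked up at 8 melanocyte marker genes. Both lines had them at 6 (MITF, TYR, PMEL, MLANA, SOX10 and PAX3), and neither line had them at TYRP1 or DCT. Inside DCT, 43693 bp from a gene end, an anti-MAFG region (chr13:94479032-94481012) overlapped H3K4me3 peaks of both lines. Of the further lineage genes RAB27A and KIT, KIT had none within 5000 bp of a gene end.

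MAFG is a small MAF protein: it has the DNA-binding and dimerization domain of the MAF family but no activation domain of its own. Pairs of small MAF proteins act as repressors, whereas pairs with NRF2 (NFE2L2), NFE2L1 or NFE2 activate genes and pairs with BACH1 or BACH2 mostly repress them. Such pairs bind antioxidant response elements and related MAF recognition elements near genes of glutathione, heme, iron and quinone metabolism. In melanoma, MITF is the lineage transcription factor that drives pigment genes and binds E-boxes.

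The promoters of 4 genes that anti-MAFG regions overlapped are shown as examples. The 250 bases before the RefSeq start of each are printed 5′ to 3′ on the gene's strand (GRCh38.p14). They were chosen after the values were seen, to stand for a region of MAFG cells alone, for regions of both lines and for a region without the motifs. Capitals mark 2 motifs, found on either strand: TGACNNNGC, the core of the antioxidant response element, and TGCTGA, an arm of the MAF recognition element. The motifs can overlap each other, as they do at HAO2, which encodes a peroxisomal hydroxyacid oxidase.
HAO2, chr1:119368535-119368784, plus strand: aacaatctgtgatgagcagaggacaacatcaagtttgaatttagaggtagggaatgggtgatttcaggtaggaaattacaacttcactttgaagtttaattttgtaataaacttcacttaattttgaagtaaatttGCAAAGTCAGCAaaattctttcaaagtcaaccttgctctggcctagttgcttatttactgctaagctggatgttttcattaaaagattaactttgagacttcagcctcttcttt
ABCB6, chr2:219218959-219219208, minus strand: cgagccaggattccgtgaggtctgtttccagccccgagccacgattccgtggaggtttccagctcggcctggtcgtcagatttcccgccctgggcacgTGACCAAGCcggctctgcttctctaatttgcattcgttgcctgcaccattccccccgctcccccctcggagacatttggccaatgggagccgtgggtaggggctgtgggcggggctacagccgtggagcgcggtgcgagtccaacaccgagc
NQO1, chr16:69726561-69726810, minus strand: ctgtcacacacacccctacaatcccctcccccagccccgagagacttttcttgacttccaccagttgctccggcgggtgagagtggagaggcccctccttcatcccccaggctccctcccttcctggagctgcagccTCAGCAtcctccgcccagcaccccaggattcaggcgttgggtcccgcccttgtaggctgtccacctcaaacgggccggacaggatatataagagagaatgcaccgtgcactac
FOS, chr14:75278578-75278827, plus strand: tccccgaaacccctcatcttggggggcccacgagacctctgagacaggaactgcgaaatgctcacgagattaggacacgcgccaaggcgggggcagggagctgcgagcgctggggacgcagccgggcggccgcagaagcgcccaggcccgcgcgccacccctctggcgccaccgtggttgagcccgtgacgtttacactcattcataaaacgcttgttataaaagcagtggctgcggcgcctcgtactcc

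Positions are counted from the RefSeq start, negative before it. In the HAO2 promoter the antioxidant core lay at -114 and the MAF element TGCTGA at -108. No GFP-cell library called a peak there, and MAFG-cell replicates 2 and 3 did, with summits at -223 and 19. ABCB6, which encodes a porphyrin transporter, carried the antioxidant core at -152, outside the called region, which reaches only the bases nearest the start and had its MAFG-cell summits at 688 to 782. NQO1, the quinone reductase that is a textbook NRF2 target, carried TGCTGA at -113, and its MAFG-cell summits lay at -292, -245 and -251. Neither motif was present in the printed bases of FOS, the AP-1 subunit, where the summits of all 3 MAFG-cell libraries lay at -207, -188 and -178. A match is a string of letters and not a measured site, and no match says only that the letters are absent from that window.

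MAFG cells had far fewer anti-MAFG peaks than GFP cells. The GFP-cell libraries held 26221, 23409 and 14879 peaks and the MAFG-cell libraries 1836, 1849 and 2818, so the lines did not overlap. The difference was -3.30 on the log2 scale (two-sided exact permutation test over libraries, p = 0.1, n = 3 per line, the smallest p that 3 against 3 allows). The depth recovered from the deposited values was 1.8 ± 0.561 (SD, n = 3) fragments per kb for the GFP-cell libraries and 1.45 ± 0.199 (SD, n = 3) for the MAFG-cell ones. The control used in calling, as recovered, was 3.0-fold shallower for MAFG cells (0.780 against 2.34 fragments per kb). The first value is a mean over 3 lists, and the second comes from GFP-cell replicate 1 alone. All these depths take the shortest peak of a list (258 to 339 bp) as the fragment length. In calling, MAFG-cell pileups were scaled by 0.484, 0.637 and 0.516 and GFP-cell pileups by 0.969 to 1, as recovered from the lists, so a site in MAFG cells had to rise higher to be listed. Expressed as summit height, the fragments over the summit as a multiple of that library's mean coverage, the lowest listed peaks were at 9.21, 9.57 and 11.4 in GFP cells, against 21.4, 19.2 and 20.6 in MAFG cells. Line and control depth therefore cannot be told apart in the raw peak numbers, and summit heights, which do not use the control, are given beside the calls below. The recovery of heights rests on an inferred formula of the peak caller.

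Counting peaks by height separated weak from strong sites. Peaks at a height of at least 25 numbered 8954, 7622 and 6283 in GFP cells, against 1808, 1680 and 2748 in MAFG cells. The log2 difference was -1.89 (exact permutation p = 0.1, n = 3 per line). At 50 or more, the numbers were 936, 833 and 531 against 886, 677 and 1440. There the lines overlapped, and the log2 difference of 0.35 was within the spread between libraries (exact permutation p = 0.5, n = 3 per line). At 100 or more the order turned, with 52, 46 and 33 peaks in GFP cells, against 139, 96 and 335 in MAFG cells, 3.84-fold more on the geometric mean (exact permutation p = 0.1, n = 3 per line). The highest peak of each library reached 203, 197 and 214 in GFP cells, against 635, 504 and 777 in MAFG cells. These height limits were chosen after the heights were seen. MAFG cells thus had fewer listed peaks of low height and more of the greatest height. A MAFG-cell site with 1 control fragment over it was listed from heights of 33.0, 31.2 and 41.1 upwards, so the count at 25 is still touched by the control and those at 50 and 100 less so.

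**Figure D1:**
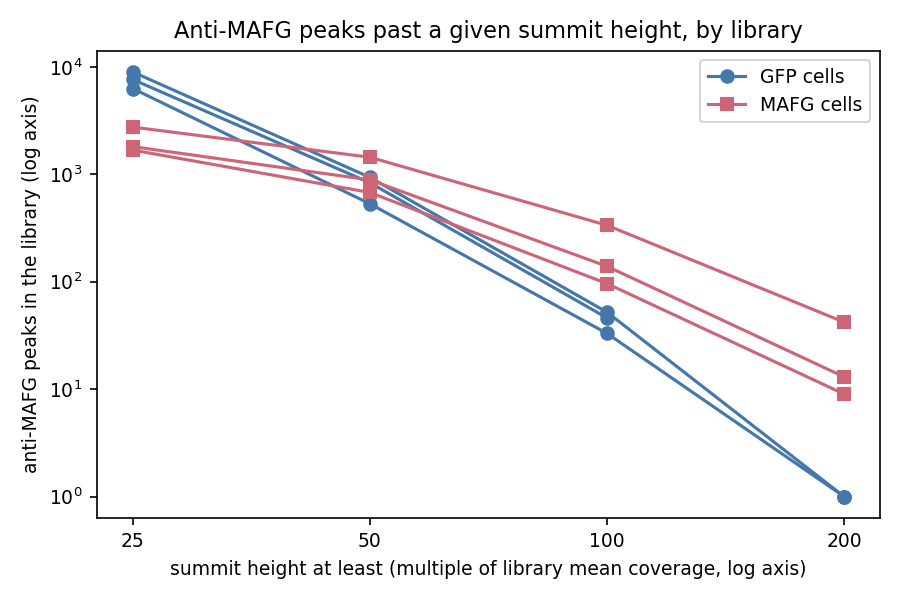
Number of anti-MAFG peaks (y, log axis) at or above a summit height (x, multiple of the library's mean coverage, log axis), 1 line per library, circles for GFP cells and squares for MAFG cells. GFP-cell libraries lie above at 25 and below at 100; GFP-cell replicate 2 had 0 peaks at 200 or more and its last point cannot be drawn on the log axis.

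Of the 34223 merged regions, 612 (1.79%) were kept, that is called in all 6 libraries. The regions lost in MAFG cells, called in 3 of 3 GFP-cell and 0 of 3 MAFG-cell libraries, numbered 8547 (25.0%). The regions gained, called in 0 of 3 and 3 of 3, numbered 119 (0.348%). Between these lay regions called by part of the libraries, the largest group being 13922 regions called by 1 GFP-cell library and no other. Lost and gained refer to these calls, and a region in no list may still hold signal under the calling limit. Among the fits that left out 1 library, each of these 2 counts moved most as follows. Without GFP-cell replicate 3 there were 14548 lost regions, and without MAFG-cell replicate 2 there were 183 gained regions.

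**Figure D2:**
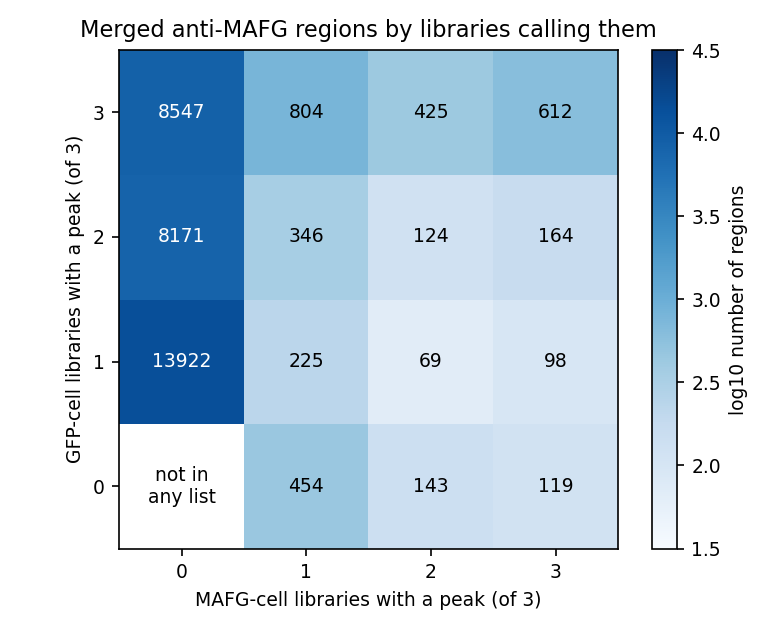
Merged anti-MAFG regions by the number of GFP-cell libraries (y) and MAFG-cell libraries (x) that called them, coloured by the log10 of the number. The column at 0 MAFG-cell libraries holds 13922, 8171 and 8547 regions for 1, 2 and 3 GFP-cell libraries, and the corner of 3 and 3 holds 612.

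With the full lists, most sites of MAFG cells were also sites of GFP cells. Taking a consensus region as one called in at least 2 of 3 libraries of a line, GFP cells had 19193 and MAFG cells 1754. Of the 1754, 1037 (59.1%) were called in 3 of 3 GFP-cell libraries, 288 in 2, 167 in 1 and 262 (14.9%) in none. The share that was a consensus region in GFP cells was 75.5%, and 18.0% with equal numbers of best peaks per library. Conversely, 6.90% of the GFP-cell consensus regions were consensus regions in MAFG cells. That share was higher at the stronger sites of GFP cells. Ranked by the mean within-library percentile of the authors' fold enrichment, the weakest 10% of GFP-cell regions were MAFG-cell consensus regions in 3.54% of cases and the strongest 10% in 18.2%, and the share was level near 4.64% from the third to the fourth bin and higher in each later bin. In the other direction no such order was seen, and 69.9% to 85.7% of each such bin of MAFG-cell regions were called in GFP cells. Kept regions had a median rank of 78.6 in GFP cells and 66.4 in MAFG cells, where 100 is the strongest peak, and lost regions one of 62.4 in GFP cells.

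**Figure D3:**
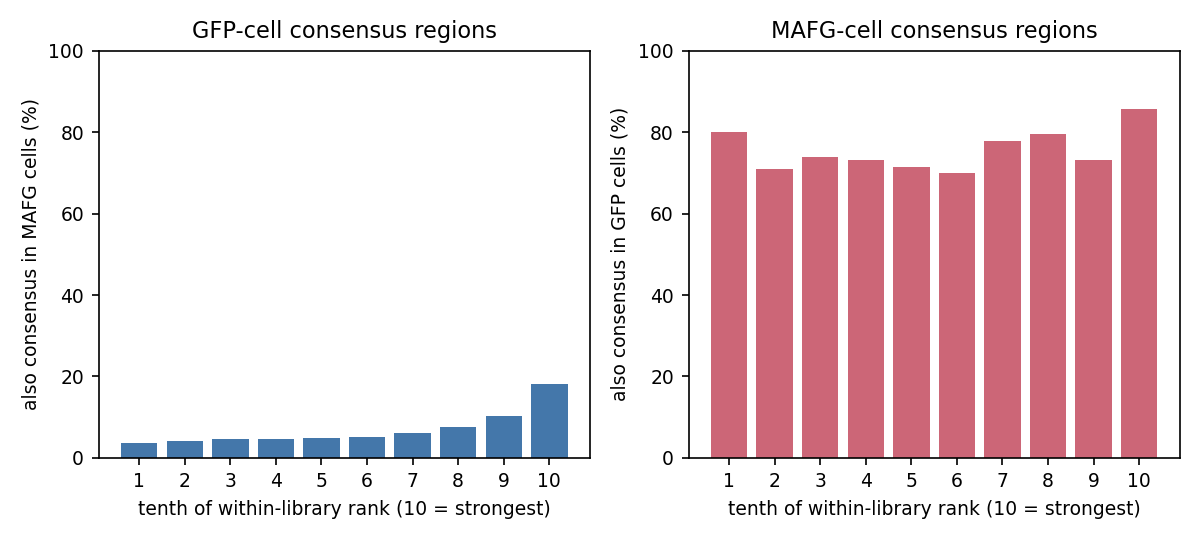
Percent of consensus regions of one line that were also consensus regions of the other (y, %), in 10 bins of within-library rank (x, 10 strongest), GFP-cell regions on the left and MAFG-cell regions on the right. The left bars rise from 3.54% to 18.2%, and the right bars lie between 69.9% and 85.7%.

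Using an equal number of best peaks per library, 1836, removed the difference in list length. That number is the whole list of MAFG-cell replicate 1 and nearly all of replicate 2 (1849). From each GFP-cell list it takes only the peaks of highest fold enrichment. Then 91 regions were kept, 390 were called in GFP cells alone and 564 in MAFG cells alone, so the imbalance between lost and gained regions turned round. Of the 564, however, 463 (82.1%) overlapped a peak of the full GFP-cell lists. A common limit on summit height of 21.4 in all 6 libraries gave 461 kept, 3786 lost and 279 gained regions, and 160 of the 279 (57.3%) overlapped a peak of the full GFP-cell lists. Lost regions outnumbered gained ones with the full lists and with the common height limit, and not with equal numbers. The common limit shortens the GFP-cell lists but cannot restore MAFG-cell sites that were never listed. With 1 control fragment over a site, MAFG-cell sites were listed only from heights of 33.0, 31.2 and 41.1, above that limit. The order of lost and gained regions under it is therefore still touched by the control.

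Even strong GFP-cell sites were often not listed in MAFG cells. Among regions called in all 3 GFP-cell libraries, 4312 had a lowest GFP-cell height under 20, and 2.85% of them were called in all 3 MAFG-cell libraries. The share was 6.52% of 5320 regions at 20 to 40, 16.9% of 705 at 40 to 80 and 45.1% of 51 at 80 or more. Of the 51 strongest, 18 (35.3%) were in no MAFG-cell list. That height is above the lowest listed MAFG-cell heights, also where 1 control fragment set the local background. The limit at each of these sites is not known, however, and is higher where the local background is higher. At a region inside MITF (chr3:69838211-69840614), MAFG-cell heights of 87.4 and 120 in replicates 1 and 2 had ranks of only 4.74 and 0.919. By H3K4me3, the regions called in all 3 MAFG-cell libraries were 27 of 221 with the mark (12.2%) and 92 of 484 without (19.0%) at 40 to 80, and 6 of 22 (27.3%) and 17 of 29 (58.6%) at 80 or more. These shares describe regions and were not tested, since regions are not replicates.

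At most kept regions the signal was higher in MAFG cells, though not on the median at the strongest ones of GFP cells. The median summit heights were 38.2, 36.4 and 31.8 in the GFP-cell libraries and 64.1, 57.6 and 77.2 in the MAFG-cell libraries, without overlap. The median difference of mean log2 height was 0.90 (quartiles 0.44 to 1.37). At 563 of 612 regions the mean was higher in MAFG cells, at 415 (67.8%) every MAFG-cell library stood above every GFP-cell library, and at 9 (1.47%) every one stood below. Part of this is set by the calls, because the lowest listed heights were 19.2 to 21.4 in MAFG cells and 9.21 to 11.4 in GFP cells. The limit at a given region can be higher, as it was for MAFG-cell sites with 1 control fragment (31.2 to 41.1 by library). With the kept regions restricted to those whose lowest GFP-cell height was at least 40, the median difference was 0.48. By the lowest GFP-cell height it was 1.38 under 20, 0.90 at 20 to 40, 0.54 at 40 to 80 and -0.03 for the 23 kept regions at 80 or more. These classes and the limit of 40 use the GFP-cell heights that are also subtracted in the difference. A fall across the classes is therefore partly built in, and its size beyond that was not tested. Regions with H3K4me3 (141) and without (471) had medians of 0.86 and 0.90, and regions within and beyond 5000 bp of a gene end had 0.98 and 0.88. Summits of the same kept region lay a median of 83.5 to 93 bp apart between GFP-cell libraries, 68.5 to 81.5 bp between MAFG-cell libraries and 83.5 to 119 bp between the lines.

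The kept regions with the best ranks illustrate this. They are named by the nearest protein-coding gene, which gives a position and not a target. In LAMA2, which encodes a laminin chain (chr6:129499968-129502586), the heights were 72.4, 72.8 and 65.9 in GFP cells, against 221, 175 and 285 in MAFG cells. That is a log2 difference of 1.67, and the groups did not overlap. A region 65811 bp from CADPS, a regulator of vesicle release (chr3:62937686-62943678), was at 145, 128 and 141 in GFP cells, against 635, 504 and 777 in MAFG cells, the highest peak of each MAFG-cell library. A second region 93173 bp from the same gene (chr3:62964502-62969750) had GFP-cell heights of 192, 197 and 214 and MAFG-cell heights of 280, 269 and 381. At the gene end of NFIA, a nuclear factor I transcription factor (chr1:61076437-61080582), H3K4me3 was present in both lines, and the heights were 55.3, 67.0 and 52.3 against 157, 180 and 144. In DDX10, an RNA helicase gene (chr11:108937663-108939522), they were 56.6, 44.0 and 40.9 against 155, 151 and 136, and this was the 1 region of the 10 off the GFP-cell anti-MITF consensus. The other regions lay in IPO11 and ABHD12, or had ARHGAP5, ENDOD1 or SPRY2 as nearest gene, at 86125, 14611 and 202743 bp. In 9 of the 10 every MAFG-cell library stood above every GFP-cell library, with log2 differences over the 10 from 0.54 at ABHD12 to 2.19 at CADPS, and 8 lay more than 5000 bp from any gene end.

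The extremes of the height difference among kept regions were chosen after their values were seen. In TNFRSF1A, the main receptor of tumour necrosis factor (chr12:6334914-6337065), heights were 59.2, 59.4 and 54.6 in GFP cells, against 286, 216 and 465 in MAFG cells (log2 difference 2.41). Regions nearest HAPSTR1 and TMEM108 had the greatest differences, 2.65 each, from GFP-cell heights of 13.2 to 23. At the other end stood FRMD6 (log2 -0.89), with heights of 84.2, 99.6 and 65.9 in GFP cells, against 35.0, 64.8 and 38.6 in MAFG cells. A region inside MITF (chr3:69820112-69824633) was at 98.7, 121 and 116 against 79.7, 88.8 and 74.6, a log2 difference of -0.46 without overlap of the libraries. Another region of MITF 1439 bp from a gene end (chr3:69738316-69742273) had heights of 165, 136 and 114 against 87.4, 106 and 306, so the lines overlapped there and the log2 difference was 0.05. By number of kept regions the leading nearest genes were PRICKLE2 with 7, CADPS with 6, ZNF608 and MITF with 5 each and NFIA with 3. The stretch of chromosome 3 from CADPS to MITF, also chosen after the values were seen, held 0.690% of all merged regions, 3.92% of kept, 0.948% of lost and 2 of the 119 gained regions.

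With the full lists, gained regions were few and lay away from promoters. Their median height was 45.6 (quartiles 36.5 to 54.8), against 25.0 (20.5 to 31.8) for lost regions in GFP cells. The lowest listed heights differ between the lines (19.2 to 21.4 in MAFG cells and 9.21 to 11.4 in GFP cells), which bears on both values. The region near HMOX1, which encodes the inducible heme oxygenase, lay 8756 bp from the gene (chr22:35371214-35373188) and stood at 113, 115 and 123 in MAFG cells. Within PHGDH, the first enzyme of serine synthesis (chr1:119736896-119737938), heights were 89.4, 57.6 and 111. The region in AGBL4, a cytosolic carboxypeptidase gene, stood at 117, 81.6 and 180, and that in CACNA1A, a calcium channel gene, at 85.5, 55.2 and 97.7. The other leading gained regions lay in APPBP2, COL5A2 and PARN, or had PRICKLE1, OXCT1 or SLC24A5 as nearest gene, at 304484, 43392 and 34363 bp. Their heights ran from 38.4 to 95.2. None of the 10 overlapped H3K4me3 in either line, all lay more than 5000 bp from a gene end, and 6 were within a gene. Among the few gained regions, PARN was the nearest gene of 2. A stricter rule, no GFP-cell peak within 1000 bp, left 108. By chromosome, 11 (9.24%) lay on chromosome 20 and 10 (8.40%) on chromosome 17, which hold 2.59% and 2.76% of all merged regions, a description without a test.

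Of the lost regions, 5447 (63.7%) lay on the GFP-cell anti-MITF consensus, against 40.3% of all merged regions, 54.1% of GFP-cell consensus regions and 70.1% of kept regions. The leading lost regions ranked in the top 1% of each GFP-cell list. They lay in MRPL18, FGF12, FCHSD2 and TANC1 or outside genes. The latter had SERPINI1, KBTBD8, FAM3C, ZNF704, CA10 or ZEB2 as nearest gene, 398 to 188422 bp away. In FCHSD2 (chr11:73019020-73020675) the GFP-cell heights were 143, 117 and 136, and no MAFG-cell library listed a peak. The lowest peaks of those lists were at heights of 19.2 to 21.4, but the limit at this site is not known. At a region 188422 bp from ZEB2, a zinc finger factor of the melanocyte lineage and of mesenchymal transition (chr2:144707653-144709389), the GFP-cell heights were 96.1, 93.8 and 65.9. In TANC1 they were 75, 97.6 and 61.4. All 10 lay on a GFP-cell anti-MITF consensus region, and 1 on a MAFG-cell one. The nearest genes with the most lost regions were SPRY2 and ZNF608 with 17 each and ZEB2, MITF and EPHA3 with 15 each. In all, 910 of 4603 nearest genes had 3 or more lost regions, and 13 of 540 had 3 or more kept regions. Such counts grow with the size of the class and with the length of a gene and its surroundings. The share over all merged regions was not computed. Of the 17 lost regions assigned to SPRY2, 0 lay inside the gene.

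The position of the peaks differed between the lines. Summits more than 5000 bp from every end of a protein-coding gene made up 74.3%, 74.6% and 75.2% of the GFP-cell lists and 82.2%, 83.2% and 83.0% of the MAFG-cell lists, a difference of 8.13 percentage points without overlap (exact permutation p = 0.1, n = 3 per line). Of lost regions 2163 (25.3%) lay within 5000 bp of a gene end, of kept regions 103 (16.8%) and of gained regions 17 (14.3%), against 25.7% of all merged regions. Within 1000 bp the numbers were 1416 (16.6%), 49 (8.01%) and 2 (1.68%). About the same part of each class lay inside a gene, 53.3%, 54.4% and 50.4%. H3K4me3 of GFP cells was overlapped by 138 (22.5%) of kept, 28.9% of lost and 1 (0.840%) of the gained regions, against 24.6% of all merged regions. For H3K4me3 of MAFG cells the shares were 16.5%, 22.5% and 1.68%, against 19.8% of all. With equal numbers of best peaks, 14.7% of the 564 regions called in MAFG cells alone overlapped H3K4me3 of GFP cells, and 12.9% that of MAFG cells. For the 390 called in GFP cells alone, these shares were 40% and 25.6%. Per library, the share of peaks on H3K4me3 was 26.0%, 25.4% and 26.5% in GFP cells, against 13%, 12.9% and 12.1% in MAFG cells, and it stood 13.3 points lower in MAFG cells (difference -13.3, exact permutation p = 0.1, n = 3 per line). The direction was the same with equal numbers of peaks (-16.1) and with the common height limit (-15.9). With H3K4me3 peaks called in both lines alone it was -9.61. The gene-distal difference was 4.47 points with equal numbers and 3.55 points for a distance of 50000 bp. Median peak width was 714, 672 and 615 bp against 608, 636 and 501 bp, and these overlapped (difference -85.3 bp, exact permutation p = 0.2, n = 3 per line). With equal numbers of best peaks the widths were 1296.5, 1218.5 and 1019 bp against 608, 636.5 and 565.5 bp, a difference of -574.7 bp without overlap, and with the common height limit the difference was -317.2 bp (exact permutation p = 0.1 for each, n = 3 per line). Both settings set the stronger GFP-cell peaks against all or most of each MAFG-cell list. The part of this selection in the differences under either setting was not tested.

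Of the shares compared per library, overlap with anti-MITF sites of the same cells differed by the most percentage points. An anti-MITF consensus region was overlapped by 46.7%, 47.4% and 55.3% of the anti-MAFG peaks in GFP cells and by 15.3%, 15.3% and 13.9% in MAFG cells. The difference was -34.9 points (exact permutation p = 0.1, n = 3 per line). With equal numbers of best peaks it was -67.1 points, and the GFP-cell shares were then 83.2%, 83.1% and 80.6%. Those are the GFP-cell peaks of highest fold enrichment, set against all or most of each MAFG-cell list. The anti-MITF lists of MAFG cells are also shorter, and their part in the difference was not tested. Set against 1 list for both lines, the GFP-cell anti-MITF consensus, the shares were 54.1% of GFP-cell and 49.8% of MAFG-cell consensus regions. Against the MAFG-cell anti-MITF consensus they were 6.74% and 15.8%. Of kept regions, 429 (70.1%) lay on the GFP-cell anti-MITF consensus and 136 (22.2%) on that of MAFG cells, against 40.3% and 4.80% of all merged regions.

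Genes of the pathways in which small MAF proteins act were then examined from 7 lists of 64 genes. A gene was counted when a consensus region lay within 5000 bp of either end. Of all 20037 protein-coding genes, 25.5% had such a region in GFP cells and 1.82% in MAFG cells. Over the 4 lists of antioxidant metabolism, 15 of 34 genes (44.1%) had one in GFP cells and 9 of 34 (26.5%) in MAFG cells, 8 of them in both. Both shares lay above their background. Over all 7 lists the counts were 25 of 64 (39.1%) and 11 of 64 (17.2%). The lists were chosen with earlier results of these data known and are no independent evidence.

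In glutathione metabolism, 5 of 10 genes had a region in GFP cells and 2 in MAFG cells. SLC7A11, the cystine transporter that supplies glutathione synthesis, had a region 229 bp from a gene end (chr4:138241375-138244184), with heights of 43.4, 30.6 and 29.6 in GFP cells, against 62.2, 62.4 and 77.2 in MAFG cells. GCLC, the catalytic subunit of glutamate-cysteine ligase, had different regions in the lines. The region at its H3K4me3-marked end (chr6:53543944-53545394) was at 21.1, 36.4 and 22.7 in GFP cells and in no MAFG-cell list. A region 3233 bp from that end (chr6:53547907-53548819) was at 17.2 in 1 GFP-cell library and at 52.5, 38.4 and 56.6 in MAFG cells. GSR, GPX2 and GGT1 had regions in GFP cells, each in 2 libraries, and none in MAFG cells.

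In heme and iron metabolism, 2 of 8 genes had a region in GFP cells and 3 in MAFG cells. Besides the gained region described above, HMOX1 had one 4256 bp from a gene end (chr22:35374286-35377702), which stood at 34.2 and 26.8 in GFP-cell replicates 1 and 2, was not listed in replicate 3, and stood at 142, 132 and 157 in MAFG cells. ABCB6, whose promoter is printed above (chr2:219217440-219219013), was at 34.2, 40.2 and 31.8 against 83.5, 64.8 and 84.9, a log2 difference of 1.13. FTH1, the ferritin heavy chain, had a region 4699 bp away (chr11:61972112-61972694) in MAFG cells only by these lists, at 68.0, 31.2 and 72.0.

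Of the thioredoxin genes, TXNRD1, the cytosolic thioredoxin reductase, had a region 4118 bp from a gene end (chr12:104219133-104220161) at 30.3, 23 and 22.7 in GFP cells, against 64.1, 62.4 and 54.0 in MAFG cells. TXN was listed in 2 libraries of each line, at 14.5 and 24.9 against 35.0 and 36.0. PRDX1, a peroxiredoxin, was at 21.1, 13.4 and 15.9 in GFP cells and not listed in MAFG cells. Among the NADPH and quinone enzymes, NQO1 (chr16:69724747-69727594) was at 42.1, 32.5 and 31.8 against 103, 79.2 and 193, a log2 difference of 1.72. NQO2 was at 23.7 and 22.7 against 50.5 and 72.0, in 2 libraries of each line. PGD and IDH1, which make NADPH, had regions in 3 of 3 GFP-cell libraries, at 24.9 to 30.3 and 31.8 to 43.4, and in no MAFG-cell list. Where both lines listed a region near an antioxidant gene, the MAFG-cell heights were above the GFP-cell heights at each of these genes, and the same limit on calls applies as for the kept regions. Within-library ranks of the fold enrichment, which uses the local background, did not follow the heights at several of these genes. SLC7A11 ranked at 88.7, 66.3 and 74.5 in GFP cells and at 18.7, 29.2 and 16.2 in MAFG cells. ABCB6 ranked at 47.9, 85.2 and 90.9 against 43.5, 4.89 and 37.7, and NQO2 at 87.1 and 78.4 against 5.94 and 11.7. At HMOX1 the ranks were 86.8 and 70.2 against 91.5, 92.7 and 94.5.

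**Figure D4:**
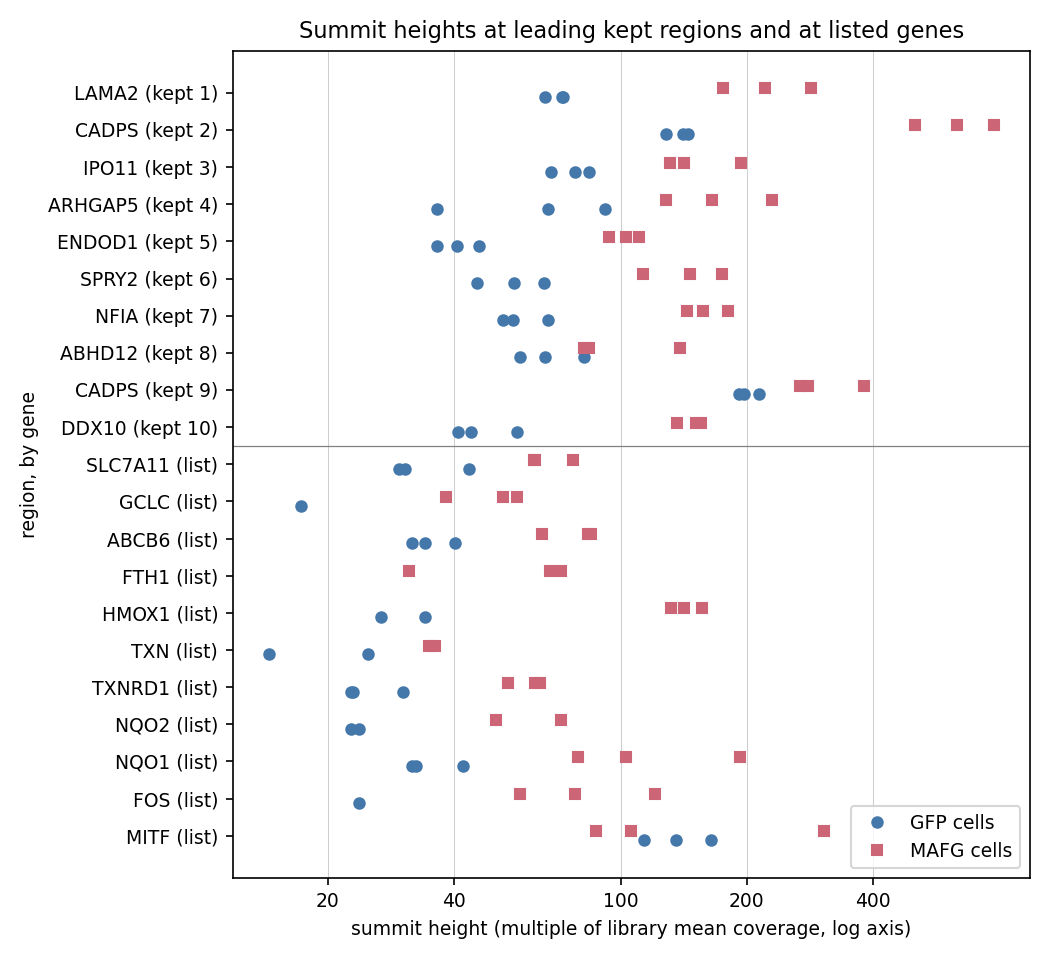
Summit heights (x, multiple of the library's mean coverage, log axis) at the 10 leading kept regions and, below the line, at regions near listed genes called in at least 2 MAFG-cell libraries, 1 point per library that called the region. MAFG-cell squares lie to the right of GFP-cell circles except at ABHD12 and MITF, where they overlap; FTH1 has no circle.

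Of the 10 genes of the small MAF proteins and their partners, 5 had a region in GFP cells (NFE2L1, NFE2L2, NFE2L3, NFE2 and BACH1) and none had one in MAFG cells. NFE2L1, which encodes NRF1, was at 48.7, 47.9 and 29.6 in GFP cells, and NFE2L2, which encodes NRF2, at 26.3, 28.7 and 20.5. The region near NFE2L3 was listed in MAFG-cell replicate 3 alone, at 28.3, and replicate 2 listed another peak near the gene. Counting gene bodies with 5000 bp around them, for which the background is 34.3% of genes in GFP cells and 4.60% in MAFG cells, 6 and 1 of the 10 had a region, the latter BACH2. Of the AP-1 genes, JUN and FOSB had regions in GFP cells and not in MAFG cells, and FOS the reverse. FOS (chr14:75276994-75278782) was listed in GFP-cell replicate 1 at 23.7, at a rank of 3.10 in that list, and stood at 77.7, 57.6 and 121 in MAFG cells, at a mean rank of 94.8. JUN was at 26.3, 47.9 and 20.5 in GFP cells. Of the 10 melanocyte lineage genes, MITF, TYR and SOX10 had regions within 5000 bp of a gene end in GFP cells, and MITF alone in MAFG cells. With gene bodies counted, 7 had one in GFP cells (PAX3, TYRP1, DCT and RAB27A besides) and 2 in MAFG cells, MITF and TYR. The region inside TYR (chr11:89248797-89249851) was in no GFP-cell list and stood at 44.7, 38.4 and 30.9 in MAFG cells. SOX10, a lineage factor upstream of MITF, was at 34.5 or more in each GFP-cell library and in no MAFG-cell list.

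Motifs were counted in the RefSeq promoter windows, 250 bases before to 50 after a start, which were found for 15743 of 20037 protein-coding genes (22078 distinct windows, with chromosome 8 left out). GFP-cell libraries overlapped 3853, 3356 and 2059 windows and MAFG-cell libraries 120, 124 and 212. The antioxidant core TGACNNNGC was in 13.8% of all windows. It was in 15.1%, 15.6% and 15.4% of those under GFP-cell peaks and in 23.3%, 26.6% and 21.2% of those under MAFG-cell peaks, 8.35 points higher in MAFG cells without overlap (exact permutation p = 0.1, n = 3 per line). TGCTGA was in 15.4% of all windows, and in 14.7%, 15.4% and 16.4% against 35.0%, 33.1% and 28.8% (difference 16.8 points, exact permutation p = 0.1, n = 3 per line). TGANTCA, the AP-1 element, which can lie within a MAF element, was in 6.16% of all windows, and its shares of 5.58%, 5.48% and 5.78% compared with 15.8%, 16.1% and 14.6% in MAFG cells (difference 9.91 points, exact permutation p = 0.1, n = 3 per line). The E-box CATGTG, which MITF binds, was in 8.96% of all windows and was at 6.53% ± 0.133 and 6.51% ± 1.60 (SD, n = 3 each; exact permutation p = 0.9). Few windows held a summit itself (349 to 631 per GFP-cell library, and 22, 28 and 54 in the MAFG-cell libraries). CATGTG was in 7.29%, 7.50% and 8.02% of these against 4.55%, 3.57% and 0%. The lines did not overlap, but so few MAFG-cell windows held the motif that no difference is read from this, and it was not tested. Over the 9 measures tested per library, the Benjamini-Hochberg adjusted p was 0.129 for each with an exact permutation p of 0.1.

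The promoters of each class are given as a description. TGCTGA was in 26 of 82 windows under kept regions (31.7%), in 60 of 180 under MAFG-cell consensus regions (33.3%) and in 15.7% of 1825 under lost regions. TGACNNNGC was in 16 of the 82 (19.5%), in 43 of the 180 (23.9%) and in 15.6% of the 1825. TGANTCA was in 11%, 12.2% and 4.77%. Windows in H3K4me3 peaks of both lines held TGCTGA in 11% and TGACNNNGC in 15%. Of the 180 windows, 15 held the summits of at least 2 MAFG-cell libraries in their upstream 250 bases, FOS among them, and 3 of these 15 carried either motif there.

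**Figure D5:**
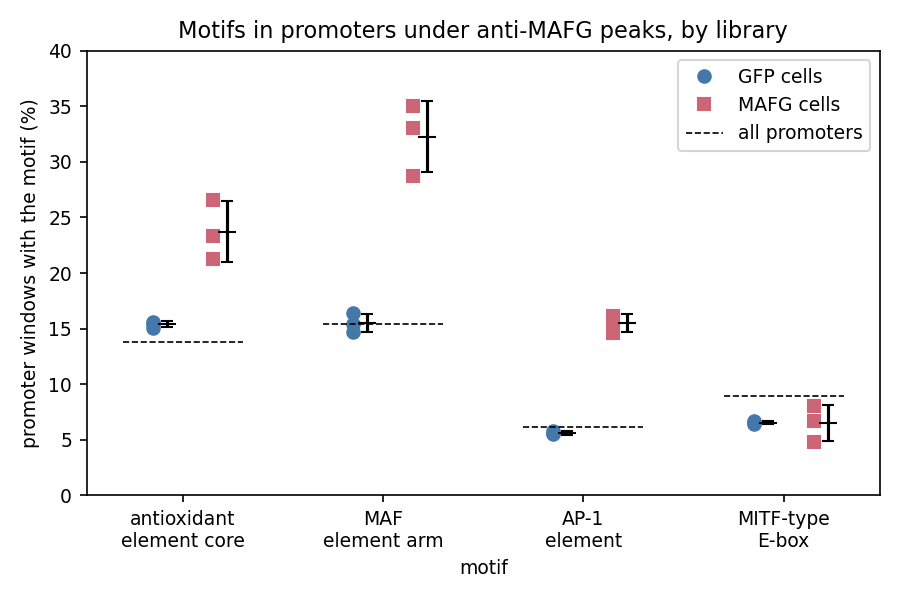
Percent of RefSeq promoter windows under anti-MAFG peaks that hold a motif (y, %), 1 point per library, for the 4 motifs along x: the antioxidant element core TGACNNNGC, the MAF element TGCTGA, the AP-1 element TGANTCA and the E-box CATGTG. Horizontal ticks with bars are means ± SD (n = 3), and dashed lines are all 22078 windows. The MAFG-cell squares lie above the GFP-cell circles for the first 3 motifs and among them for the E-box.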

How the data were processed

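Per the submitters' processing notes, the authors used cutadapt 1.8.1, Bowtie2 2.4.1, MACS2 2.1.1.20160309, ChIPseeker 1.32.1 and deepTools with build GRCh38 (hg38); the parameters and the control used are not given in the sources used here. The authors deposited 1 peak list per library, with a fold enrichment (a linear ratio), the −log10 p and −log10 q, the summit and an integer score of each peak; the score was not used (lowest −log10 q 2.01 in the 6 lists).

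The lists give no read counts. Fragments at each summit and the local background were solved from the deposited fold and −log10 p, with fold = (pileup + 1) / (background + 1), a Poisson upper tail and 1 scale per library, to within 0.002 fragments. Height is the summit fragments divided by the library's mean coverage. This and the region counts were tested on simulated data.

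Peaks were merged at 1 bp of overlap. Distances run to the nearest end of 20037 protein-coding genes of RefSeq GRCh38.p14, whose table used here has no strand. The regions named are, per class, the 10 with the best mean within-library rank of fold enrichment, listed genes with a consensus region, and the 5 genes with the most regions per class. Members and lists were chosen with earlier results of these data known. Group differences were tested by two-sided exact permutation over 20 assignments of libraries (smallest p 0.1). A planned motif count around summits needs a genome sequence, which was not used here, and was replaced by promoter windows. Shorter lists, a common height limit, stricter q, summit joining, other distances and left-out libraries were tried. Python 3.11.15, scipy 1.17.1, numpy 2.4.6, pandas 2.3.3 and matplotlib 3.10.9 were used.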

Additional observations from a re-analysis of the deposited data

How the results depend on the processing

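Of 124 values recomputed under an alternative, the 63 with a test kept their sign. Most of the rest are counts and shares, which cannot change sign. The order of lost and gained regions did turn with equal numbers, to 390 against 564. The 63 with a test could not go below a p of 0.1 and so do not speak to stability; their sizes moved, in width to -574.7 bp with equal numbers and -317.2 bp with the common height limit, in gene-distal share to 4.47 points with equal numbers and 3.55 at 50000 bp, and in anti-MITF overlap to -67.1 points with equal numbers. Equal numbers and the common height limit keep the stronger GFP-cell peaks and all or most of each MAFG-cell list. Of the values with no test, 15 moved, each by over 1.5 times. Kept regions (612) numbered 356 at a −log10 q of at least 5, 91 with equal numbers of best peaks and 270 when peaks were joined by summits within 250 bp, where fewer peaks or stricter joining enter by construction. Lost regions (8547) numbered 5161, 390 and 4840 under the same 3 settings and 3786 with the common height limit. Gained regions (119) numbered 564 with equal numbers and 279 with the common limit. The share of MAFG-cell consensus regions called in GFP cells (75.5%) was 18.0% with equal numbers. That of GFP-cell consensus regions called in MAFG cells (6.90%) was 18.7% with equal numbers and 11.1% with the common limit. The height difference at kept regions (0.90) was 0.48 for those with a lowest GFP-cell height of at least 40. The common limit on peak number, the promoter windows, the 1000 bp rule for gained regions and the height subset were chosen after seeing the data.

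Leaving out each library in turn gave 8705 to 14548 lost, 130 to 183 gained and 624 to 787 kept regions, because fewer libraries had to call a region. Over the same fits the difference in peak number ranged from -3.54 to -3.14, in H3K4me3 share from -13.6 to -13.0 points, in anti-MITF overlap from -36.5 to -32.2, in gene-distal share from 7.91 to 8.41, in antioxidant core from 6.90 to 9.59 and in width from -112.5 to -45.0 bp. The median height difference at kept regions ranged from 0.75 to 0.99. The shares called in the other line ranged from 59.7% to 78.3% for MAFG-cell and from 4.78% to 9.44% for GFP-cell regions.

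Replicate numbers are shared between the lines, but libraries with the same number deviated from their line's mean calls with correlations of only 0.013, 0.006 and 0.026, so no pairing was taken from them. With the replicate block the differences were -3.30 (peak number), -85.3 bp (width), -13.3 (H3K4me3), 8.13 (gene-distal), -34.9 (anti-MITF) and 8.35 (antioxidant core), each with an exact sign-flip p of 0.25, the smallest 3 pairs allow.

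The recovered heights rest on an inferred formula. MAFG-cell sites under heights of 19.2 to 21.4, by library, were not listed with that control. Distances use both gene ends. The planned motif count around summits was not run.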
